A study of Rattus norvegicus with 9 samples.

Results

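The mitochondrial ribosomal protein genes are the genes whose symbol begins with Mrpl or Mrps followed by a digit. The table held 59 of them among 12609 symbols, 36 Mrpl genes and 23 Mrps genes. A symbol was tested where 3 or more of the 9 libraries had 1 TPM or more, which all 59 did, as did 10180 symbols in all. TPM is transcript abundance scaled for length, and every library sums to 1000000. RNA came from rat brain, with 3 libraries in each of 3 groups. For IR+NMN, rats underwent middle cerebral artery occlusion (MCAO, a model of ischemic stroke) and were injected with 100 mg/kg nicotinamide mononucleotide (NMN, from which cells make the coenzyme NAD) in saline. IR rats had the occlusion and PBS as their treatment label. Sham rats were operated on without the occlusion, also with PBS as the treatment label. No sample is labelled as NMN without the occlusion. The sources used here give no strain, sex, age, brain region or times of reperfusion, injection and collection. Whether each library is a separate animal is not stated either, so the p-values measure only how these libraries vary, which may be technical.

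Mitochondria keep a small genome that encodes subunits of the respiratory chain and the ATP synthase. These are made inside the organelle by a dedicated ribosome, the mitoribosome, with a large subunit that forms peptide bonds and a small subunit that reads the messenger RNA. Its RNAs are mitochondrial, but all of its proteins are encoded in the nucleus, made in the cytosol and imported. Some descend from bacterial ribosomal proteins and others occur in mitochondria alone. In brain, where neurons depend on oxidative phosphorylation, inherited defects of mitoribosomal proteins are among the causes of mitochondrial disease.

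Most of these genes were somewhat higher in IR than in Sham libraries, while most other genes in the table were lower, but few single genes passed the test. Between IR and Sham, Mrpl48 rose and Mrps10 fell. In IR+NMN against Sham, Mrps23 rose and Mrps10 fell. The Mrpl48 call held in 10 and the Mrps23 call in 11 of 21 alternative settings, against 15 and 18 for the 2 calls of Mrps10. No member passed between IR+NMN and IR.

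Levels ranged widely among the members. The median of the 59 means over all libraries was 60.4 TPM, and single values ran from 6.85 TPM (Mrpl40 in Sham 2) to 1921 TPM (Mrpl51 in IR+NMN 3). Means of 100 TPM or more were found for 14 members, and means under 20 TPM for 6. The highest means were 469 TPM for Mrpl51, 205 TPM for Mrps21, 182 TPM for Mrpl20, 166 TPM for Mrpl33 and 159 TPM for Mrps33. At the other end, Mrpl40 averaged 8.56 TPM, Mrpl47 11.2 TPM, Mrps11 11.9 TPM, Mrpl39 15.9 TPM and Mrpl1 18.1 TPM. By class, the median TPM was 69.3 for the 20 large-subunit proteins with a bacterial homologue and 93.7 for the 18 large-subunit proteins found in mitochondria alone. It was 49.7 TPM for the 12 small-subunit proteins with a bacterial homologue and 49.2 TPM for the 8 found in mitochondria alone. These classes follow the particle and not the symbol: Mrps18a and Mrps30 belong to the large subunit despite their names. Mrps36 stayed outside the classes, since its protein is now assigned to the 2-oxoglutarate dehydrogenase complex.

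The libraries differed in ways that touch every comparison. Over all 10180 genes the median log2 change of TPM + 1 was -0.21 between IR and Sham, 0.04 between IR+NMN and IR and -0.14 between IR+NMN and Sham. Quantile scaling moved the first of these to 1.33e-05 and median-of-ratios scaling to -0.00378. Summed neuron markers (10 of 10 in the table) lay at 4350 to 5495 TPM in IR+NMN, 4732 to 7564 in IR and 6070 to 7559 in Sham libraries. Oligodendrocyte markers (8 of 8) summed to 3596 to 9088, 4076 to 7691 and 5888 to 12850 TPM in the same 3 groups. Astrocyte markers (8 of 8) summed to 6147 to 8618 TPM in IR+NMN, 5302 to 7041 in IR and 3794 to 4918 in Sham libraries. Most of that difference was Gfap, the filament protein of reactive astrocytes: the other 7 markers summed to 2026 to 3984, 3981 to 4636 and 3400 to 4420 TPM in these groups. Between IR+NMN and Sham 2 of the 8 were above 0, with a median log2 change of -0.59. For microglia and macrophages (10 of 10) the sums were 389 to 492, 398 to 418 and 312 to 356 TPM, and without the complement genes C1qa and C1qb 198 to 228, 193 to 203 and 215.1 to 244 TPM. Endothelial markers (7 of 8) summed to 85.8 to 127, 94.0 to 116 and 138 to 191 TPM, and red blood cell markers (7 of 7) to 825 to 1011, 732 to 900.4 and 4079 to 9335 TPM. Aqp4, an astrocyte water channel, was listed at 0 in Sham 3, and no other marker was listed at 0 in any library. Brain cell markers were thus present throughout. Endothelial and red blood cell sums did not overlap between the occlusion libraries and Sham. Nor did the astrocyte and microglial sums, but without Gfap the astrocyte sums overlapped, and without C1qa and C1qb all IR sums of microglia were below Sham. Their part in the results below was not tested, and in bulk tissue fewer cells of a type and less RNA per cell cannot be told apart.

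After occlusion, members tended upward. Between IR and Sham, 43 of the 59 members had a log2 change above 0 (72.9%), against 27.4% of all genes tested. The median change of the members was 0.26 on the log2 scale of TPM + 1, against -0.21 for all genes. In 23 members (39%) every IR library lay above every Sham library, against 7.58% of all genes. The reverse held for 4 members (6.78%), namely Mrps10, Mrpl3, Mrpl37 and Mrpl44, against 26.7% of all genes. The sizes were modest, with 25 members between -0.2 and 0.2 log2 and 12 above 0.5. By the limma test across all genes, 2 members passed an adjusted p of 0.05 (3.39%), 1 higher and 1 lower, against 6.39% of all genes in either direction (1.14% higher and 5.26% lower). At an unadjusted p under 0.05 there were 23 members (39%), against 28.3% of all genes, both in either direction. The 651 calls over all genes were 116 higher and 535 lower. They became 290 higher and 292 lower with quantile scaling, and 276 higher and 285 lower with median-of-ratios scaling. Both scalings bring the median of all genes close to 0, which raises most log2 changes. Under them 55 and 56 of the 59 members were above 0, which is therefore no separate support for the upward direction.

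**Figure D1:**
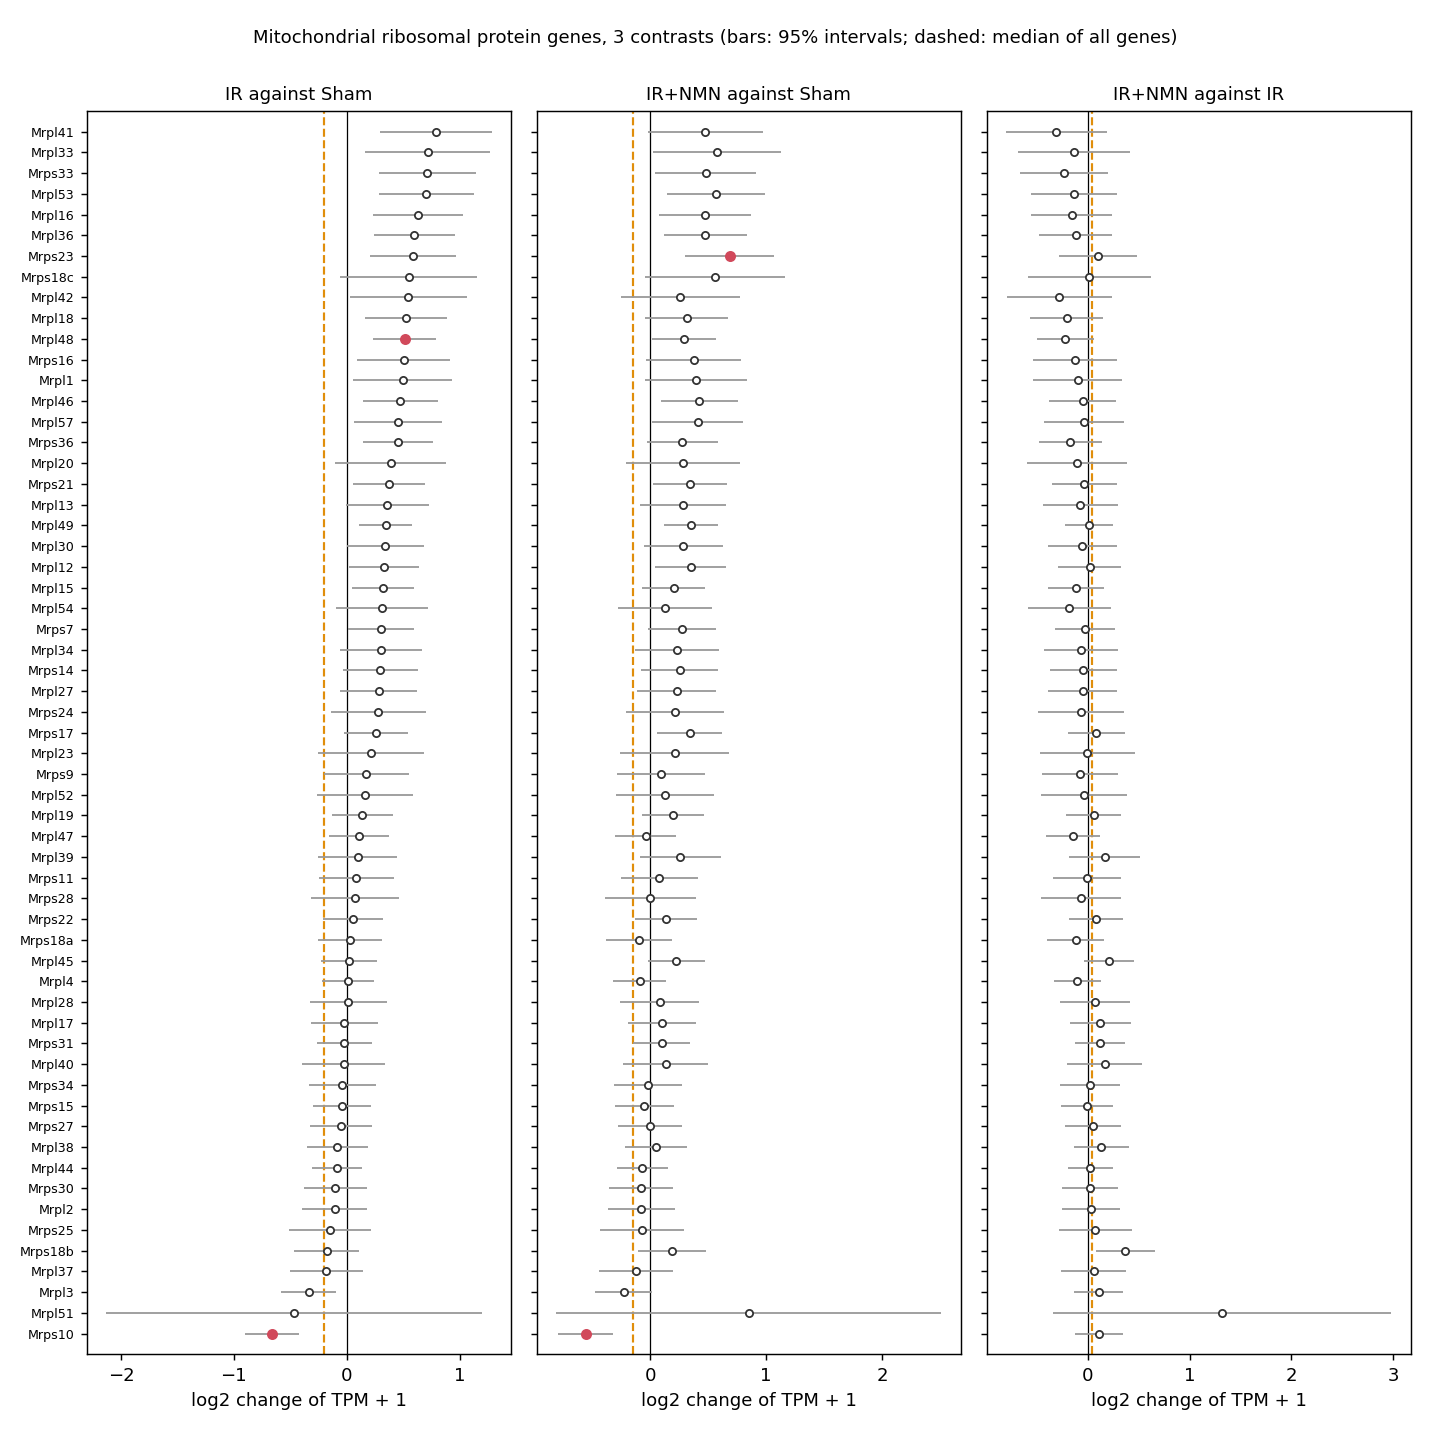
Log2 change of TPM + 1 for each of the 59 members (vertical axis, ordered by IR against Sham) in the 3 comparisons, with 95% intervals from limma; filled points passed an adjusted p of 0.05 and the dashed line is the median of all 10180 genes. Most points in the 2 comparisons with Sham lie right of both lines, while between IR+NMN and IR the intervals of all members but Mrps18b cover 0.

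Mrps10 went against the trend of its family. It encodes a small-subunit protein with a bacterial homologue in the head of the subunit. Its level was 60.5, 53.4 and 63.4 TPM in IR+NMN libraries, 55.0, 51.8 and 56.9 TPM in IR libraries and 92.2, 84.4 and 84.9 TPM in Sham libraries. Each of the 6 occlusion libraries was below each Sham library. Mrps10 fell to a mean of 54.6 ± 2.62 TPM in IR, against 87.2 ± 4.37 TPM in Sham (SD, n = 3 each), a log2 change of -0.67 with a standard error of 0.11 (limma, adjusted p = 0.0136). In IR+NMN the mean was 59.1 ± 5.16 TPM, a log2 change of -0.56 from Sham with a standard error of 0.11 (limma, adjusted p = 0.0152). Both comparisons use the same Sham libraries. Mrps10 differed by 0.11 log2 between IR+NMN and IR (95% interval -0.13 to 0.35). Among other settings, the IR call was lost without Sham 2 (adjusted p = 0.0616), IR 2 (0.0699) or IR 3 (0.0564) and with quantile (0.0671) or median-of-ratios scaling (0.0959). The IR+NMN call was lost without Sham 2 (0.0582) and with the same scalings (0.0602 and 0.0942). The log2 change of Mrps10 from Sham stayed between -0.70 and -0.41 in all 21 alternatives. RefSeq names a pseudogene copy of Mrps10, and the sources used here do not say how reads shared with it were counted.

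The start of Mrps10 is shown because it was the member with the smallest adjusted p. The window runs from 250 bases before to 50 bases after the RefSeq gene start (GRCr8, chr9:21122404-21122703, minus strand, 5′ to 3′). Capitals mark an ETS-type motif (CCGGAAG) at positions 251 to 257 and a YY1-type motif (AAGATGGC) at positions 281 to 288, counted from 1 at the 5′ end.
Mrps10: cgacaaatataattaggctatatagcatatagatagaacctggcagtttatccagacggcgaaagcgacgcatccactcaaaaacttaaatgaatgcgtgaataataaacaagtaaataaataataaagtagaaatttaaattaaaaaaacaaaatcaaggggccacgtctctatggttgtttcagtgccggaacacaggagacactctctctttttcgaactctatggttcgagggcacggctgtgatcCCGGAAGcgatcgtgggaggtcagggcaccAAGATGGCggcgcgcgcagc

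Mrpl48, which encodes a large-subunit protein found in mitochondria alone, was the member called higher between IR and Sham. It had 131, 119 and 109 TPM in IR+NMN libraries, 128, 151 and 141 TPM in IR libraries and 108, 88.3 and 97.8 TPM in Sham libraries. Every occlusion library stood above every Sham library, and the IR libraries overlapped with IR+NMN. These values are sums of 2 rows. On row 1 alone IR+NMN 3 had 89.5 TPM, within the 88.3 to 93.8 TPM of the Sham libraries, while all IR libraries stayed above Sham. Mrpl48 averaged 140 ± 11.7 TPM in IR and 97.97 ± 9.78 TPM in Sham libraries (SD, n = 3 each), a log2 change of 0.51 with a standard error of 0.12 (limma, adjusted p = 0.0449). Its log2 change between IR+NMN and Sham was 0.29 (adjusted p = 0.15), with a mean of 119.9 ± 10.9 TPM in IR+NMN. The call was close to the limit: it was lost without Sham 1 (adjusted p = 0.0662), Sham 2 (0.172), Sham 3 (0.106), IR 2 (0.175), IR 3 (0.146) or IR+NMN 3 (adjusted p = 0.068). Among other settings, the Mrpl48 call was also lost with the highest row per symbol. It held in 10 of 21 alternatives.

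The Mrpl48 window (GRCr8, chr1:164351327-164351626, minus strand, 5′ to 3′) held both motif types too. Capitals mark the YY1-type motif at positions 74 to 81 and the reverse complement of the ETS-type motif (CTTCCGG) at positions 175 to 181.
Mrpl48: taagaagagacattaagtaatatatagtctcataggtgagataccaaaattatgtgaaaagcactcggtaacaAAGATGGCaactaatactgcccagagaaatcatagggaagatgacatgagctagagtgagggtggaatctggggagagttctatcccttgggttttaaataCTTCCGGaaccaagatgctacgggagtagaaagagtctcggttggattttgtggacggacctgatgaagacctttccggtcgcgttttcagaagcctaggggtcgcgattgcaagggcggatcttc

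Other members came close to the limit in IR without passing it. Adjusted p-values between 0.05 and 0.1 were found for 11 members, 10 higher and 1 lower, against 1.56% of all genes higher and 7.87% lower. Among large-subunit proteins with a bacterial homologue, Mrpl36 had 69.6, 55.4 and 49.0 TPM in IR+NMN, 55.5, 69.9 and 62.5 TPM in IR and 44.7, 35.6 and 43.1 TPM in Sham libraries. All occlusion libraries were above all Sham libraries, and the log2 change between IR and Sham was 0.60 (standard error 0.16, limma adjusted p = 0.0576). Mrpl16, which sits near the catalytic centre in bacterial ribosomes, gave 0.63 (adjusted p = 0.064) and Mrpl18, whose bacterial homologue binds the 5S rRNA, gave 0.52 (adjusted p = 0.0773). Mrpl33 averaged 182.5 ± 59.6 TPM in IR+NMN, 197 ± 38.8 TPM in IR and 119 ± 23.0 TPM in Sham libraries, with a log2 change of 0.72 between IR and Sham (adjusted p = 0.102).

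Large-subunit proteins of mitochondria alone included the largest of these differences. Mrpl41, which in human cells is also known to bind the apoptosis regulator BCL2, had 156, 113 and 103 TPM in IR+NMN, 112, 171 and 184 TPM in IR and 86.4, 79.0 and 99.0 TPM in Sham libraries. IR 1 stood well below the other IR libraries but above Sham. Its log2 change was 0.79 between IR and Sham with a standard error of 0.22 (limma, adjusted p = 0.0639) and 0.48 between IR+NMN and Sham (adjusted p = 0.182). Mrpl53 had 151.5, 130.2 and 102 TPM in IR+NMN, 109, 162 and 152 TPM in IR and 88.0, 77.2 and 89.4 TPM in Sham libraries, a log2 change of 0.71 between IR and Sham (standard error 0.19, adjusted p = 0.0571). Without IR 1 the test called 10 members between IR and Sham, among them Mrpl18, Mrpl36, Mrpl41, Mrpl53 and Mrps33. Over all genes it called 11.2%, with 161 higher and 977 lower. Without IR+NMN 1 it called 7 members, against 7.47% of all genes, with 146 higher and 614 lower. In each of these 1 of the called members, Mrps10, was lower. It called 0 when Sham 2, IR 2 or IR 3 was left out (0.806%, 0.727% and 0.806% of all genes), and 1 when Sham 1, Sham 3 or IR+NMN 3 was (2.49%, 1.34% and 2.82%).

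In the small subunit, Mrps33 showed the largest difference. This protein, found in mitochondria alone, had 199.9, 152 and 143 TPM in IR+NMN, 144, 219 and 226 TPM in IR and 117, 113 and 121 TPM in Sham libraries. Its groups did not overlap with Sham, and its log2 change between IR and Sham was 0.71 (standard error 0.19, limma adjusted p = 0.0583). Mrps36 averaged 102 ± 17.9 TPM in IR+NMN, 114 ± 7.24 TPM in IR and 83.1 ± 4.04 TPM in Sham libraries, with a log2 change of 0.45 between IR and Sham (adjusted p = 0.0772). The 1 lower member in this range was Mrpl3, a core large-subunit protein with a bacterial homologue. Mrpl3 averaged 65.9 ± 3.38 TPM in IR+NMN, 61.2 ± 4.02 TPM in IR and 77.5 ± 6.26 TPM in Sham libraries, a log2 change of -0.34 between IR and Sham (adjusted p = 0.0871).

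**Figure D2:**
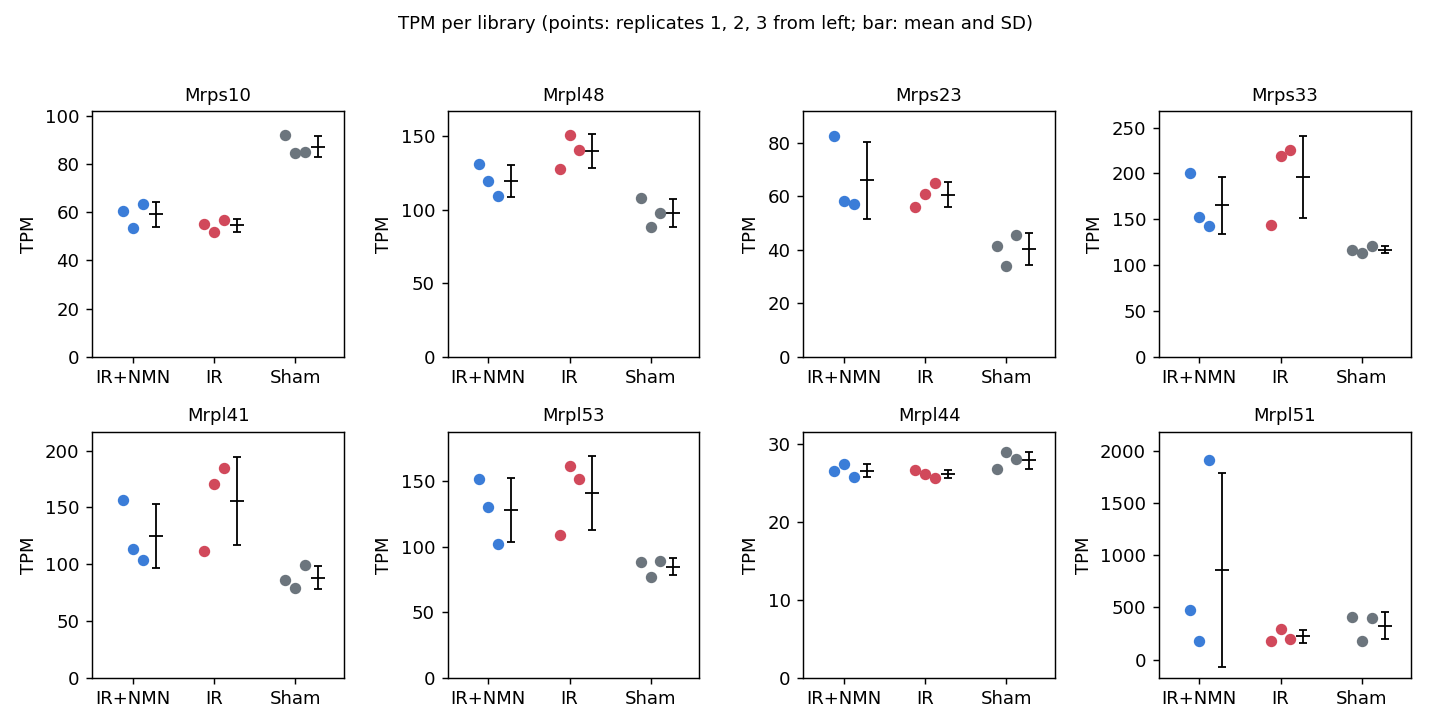
TPM (vertical axes, starting at 0 except for Mrpl51, whose SD bar reaches below it) of 8 members in the 9 libraries, with points for single libraries and bars for the mean and SD of each group. Mrps10 lies at 51.8 to 63.4 TPM in the occlusion libraries and 84.4 to 92.2 TPM in Sham libraries, Mrpl44 hardly varies, and Mrpl51 is dominated by 1 library.

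Medians in IR were given by symbol and by class as a description, with no test of the differences. The Mrps symbols are not the small subunit alone, since they include Mrps18a and Mrps30 of the large subunit and Mrps36. The Mrpl genes had a median log2 change of 0.31 between IR and Sham (28 of 36 above 0), and the Mrps genes one of 0.09 (15 of 23). By class, the medians were 0.31 for large-subunit proteins with a bacterial homologue (17 of 20 above 0) and 0.13 for large-subunit proteins of mitochondria alone (12 of 18). For the small subunit they were 0.27 with a bacterial homologue (10 of 12) and -0.03 for mitochondria alone (3 of 8). With Mrpl51 left out, Mrps genes summed to 54.2, 57.5 and 55.8 TPM for each 100 TPM of Mrpl genes in IR+NMN libraries. The ratio was 55.1, 53.4 and 53.8 in IR libraries and 59.6, 59.8 and 55.9 in Sham libraries. IR libraries thus lay below Sham without overlap, Sham 3 was close to them, and IR+NMN overlapped with both.

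The IR+NMN libraries were set against the same Sham libraries. Here 46 of 59 members were above 0 (78%), against 35.2% of all genes, and the median was 0.23, against -0.14. All IR+NMN libraries lay above all Sham libraries in 21 members (35.6%), against 13% of all genes. They lay below in Mrps10 and Mrpl3 (3.39%), against 20.4%. The test called 2 members (3.39%), 1 higher and 1 lower, against 10.3% of all genes (4.21% higher and 6.13% lower). Over all genes these calls were 429 higher and 624 lower, which became 717 and 692 with quantile scaling and 686 and 595 with median-of-ratios scaling. At an unadjusted p under 0.05 there were 14 of 59 members, against 29.9% of all genes, both in either direction.

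Mrps23, a small-subunit protein found in mitochondria alone, was the member called higher here. It had 82.4, 58.03 and 57.1 TPM in IR+NMN, 55.9, 60.9 and 65.0 TPM in IR and 41.3, 34.0 and 45.5 TPM in Sham libraries. IR+NMN 1 was the highest, and every occlusion library was above every Sham library. The means were 65.9 ± 14.3 TPM in IR+NMN, 60.6 ± 4.57 TPM in IR and 40.3 ± 5.84 TPM in Sham (SD, n = 3 each). The log2 change was 0.69 between IR+NMN and Sham (standard error 0.17, limma adjusted p = 0.0378) and 0.59 between IR and Sham (adjusted p = 0.0684). Between IR+NMN and IR it was 0.10 (limma, adjusted p = 0.947). Leaving out IR+NMN 1 (adjusted p = 0.0991) or IR+NMN 3 (0.0769) ended the call, as did leaving out IR 2 (0.06), IR 3 (0.0603) or any Sham library (0.0778, 0.142 and 0.0568 without Sham 1, 2 and 3). Among other settings, the Mrps23 call was also lost with only the 2 groups compared and with the unmoderated linear model. It held in 11 of 21 alternatives. Next in line were Mrpl49 with a log2 change of 0.36 (adjusted p = 0.0595), Mrpl53 with 0.57 (0.0816) and Mrpl36 with 0.48 (0.0857), each with no overlap between IR+NMN and Sham. Mrpl49 averaged 121 ± 8.92 TPM in IR+NMN, 120.3 ± 6.67 TPM in IR and 94.5 ± 4.89 TPM in Sham libraries. Without IR+NMN 2 the test called 4 members, among them Mrpl49 and Mrpl39, against 21.3% of all genes, and without IR 1 it called 3, against 11.6%, so the members' share stayed below that of all genes. It called 0 without Sham 2 (2.82% of all genes), and only Mrps10 when Sham 1 or 3, IR 2 or 3, or IR+NMN 1 or 3 was left out.

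The Mrps23 window (GRCr8, chr10:73495988-73496287, plus strand, 5′ to 3′) is given beside those of Mrps10 and Mrpl48. It held the exact letters of neither motif, nor of the NRF1-type motif, on either strand, and so has no capitals. Near matches were not searched for.
Mrps23: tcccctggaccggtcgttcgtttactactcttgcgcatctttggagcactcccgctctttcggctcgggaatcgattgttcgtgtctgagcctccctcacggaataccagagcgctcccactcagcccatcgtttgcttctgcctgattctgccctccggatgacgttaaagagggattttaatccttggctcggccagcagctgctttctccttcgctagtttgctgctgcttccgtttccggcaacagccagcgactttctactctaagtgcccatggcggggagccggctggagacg

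No member passed the test between IR+NMN and IR. There limma called 0 of the 59 members, against 2.36% of all genes in either direction (2.3% higher and 0.0589% lower, 240 genes in all). The unmoderated linear model also called 0 members, but only 3 genes of all tested (0.0295%), so it says little here. At an unadjusted p under 0.05 there was 1 of the 59 members, against 13.3% of all genes. The median log2 change was -0.03, against 0.04 for all genes, and 25 members (42.4%) were above 0, against 58%. The sign of this median changed with the libraries used, between -0.10 without IR+NMN 1 and 0.05 without IR+NMN 3, and was also above 0 without IR 2 (0.02), IR 3 (0.0085) or IR+NMN 2 (0.0051). In 3 members (5.08%) all IR+NMN libraries were above all IR libraries, against 13.7% of all genes, and in 0 members were they all below, against 3.22%. The 95% intervals of 58 members covered 0. Leaving out Mrpl51, all intervals lay between -0.81 and 0.66 log2. Each is a 95% interval for a single member, not adjusted for their number, so together they do not bound the differences of all members.

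The smallest p in this comparison belonged to Mrps18b, 1 of 3 genes whose proteins are related to the same bacterial protein. Mrps18a and Mrps18b are counted above among proteins of mitochondria alone, since they take positions of their own in the mitoribosome, and Mrps18c among those with a bacterial homologue. Mrps18b had 54.6, 43.8 and 47.3 TPM in IR+NMN, 41.4, 32.5 and 38.6 TPM in IR and 40.9, 43.7 and 42.6 TPM in Sham libraries. All IR+NMN libraries were above all IR and all Sham libraries, and IR 2 was the lowest. The log2 change between IR+NMN and IR was 0.37 with a standard error of 0.13 (limma, adjusted p = 0.221). Its relative Mrps18a, in the large subunit, averaged 87.9 ± 12.1 TPM in IR+NMN, 95.03 ± 3.97 TPM in IR and 93.6 ± 8.37 TPM in Sham libraries. Mrps18c, in the small subunit, averaged 100.6 ± 31.0 TPM in IR+NMN, 99.2 ± 25.9 TPM in IR and 66.9 ± 13.7 TPM in Sham libraries, with a log2 change of 0.55 between IR and Sham (adjusted p = 0.212). The 3 relatives therefore had different mean orders, and none passed the test in any comparison.

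Other members with small p between IR+NMN and IR included both directions. Mrpl45, which in mammals helps to hold the ribosome at the inner membrane, had 68.6, 55.4 and 59.3 TPM in IR+NMN, 50.01, 53.0 and 54.8 TPM in IR and 51.6, 52.2 and 51.8 TPM in Sham libraries. All IR+NMN libraries were above the rest by a small margin, with a log2 change of 0.21 from IR (limma, adjusted p = 0.496). Mrpl48 and Mrpl41 had log2 changes of -0.22 (adjusted p = 0.532) and -0.31 (adjusted p = 0.691). Mrps31 was the third member whose IR+NMN libraries stood above all IR libraries, with a log2 change of 0.12 (adjusted p = 0.797).

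Mrpl51 had both the highest level and the widest spread. It encodes a large-subunit protein found in mitochondria alone. It had 473.5, 179.8 and 1921 TPM in IR+NMN, 179, 296 and 198 TPM in IR and 405, 173.5 and 396.5 TPM in Sham libraries. The value in IR+NMN 3 was more than any other library's, and the groups overlapped in all comparisons. Its log2 change was 1.32 between IR+NMN and IR with a standard error of 0.73 (limma, adjusted p = 0.538). It has a single row in the table, so no split over rows was involved. Of its nearest genomic neighbours in RefSeq, those in the table were Vamp1 at 150 to 265 TPM over all libraries, Ncapd2 at 1.92 to 4.96 TPM, Gapdh at 19.9 to 286.0 TPM and Cd27 at 0.062 to 0.383 TPM. In IR+NMN 3 they had 177, 3.11, 198 and 0.0969 TPM, and each was higher in another library. Gapdh thus varied widely too, with its highest values in IR+NMN 2 and Sham 1. The steadiest members were Mrps34, Mrps15 and Mrps27, whose group means differed by at most 0.04, 0.05 and 0.05 log2. Mrpl44, with a domain related to RNase III, stayed at 25.8 to 27.4 TPM in IR+NMN, 25.7 to 26.7 TPM in IR and 26.8 to 29.0 TPM in Sham libraries. Mrpl12, which in human cells also binds the mitochondrial RNA polymerase, averaged 119 ± 18.5 TPM in IR+NMN, 117 ± 11.04 TPM in IR and 92.6 ± 6.85 TPM in Sham libraries. Its log2 changes from Sham were 0.35 in IR+NMN (adjusted p = 0.127) and 0.33 in IR (adjusted p = 0.156).

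**Figure D3:**
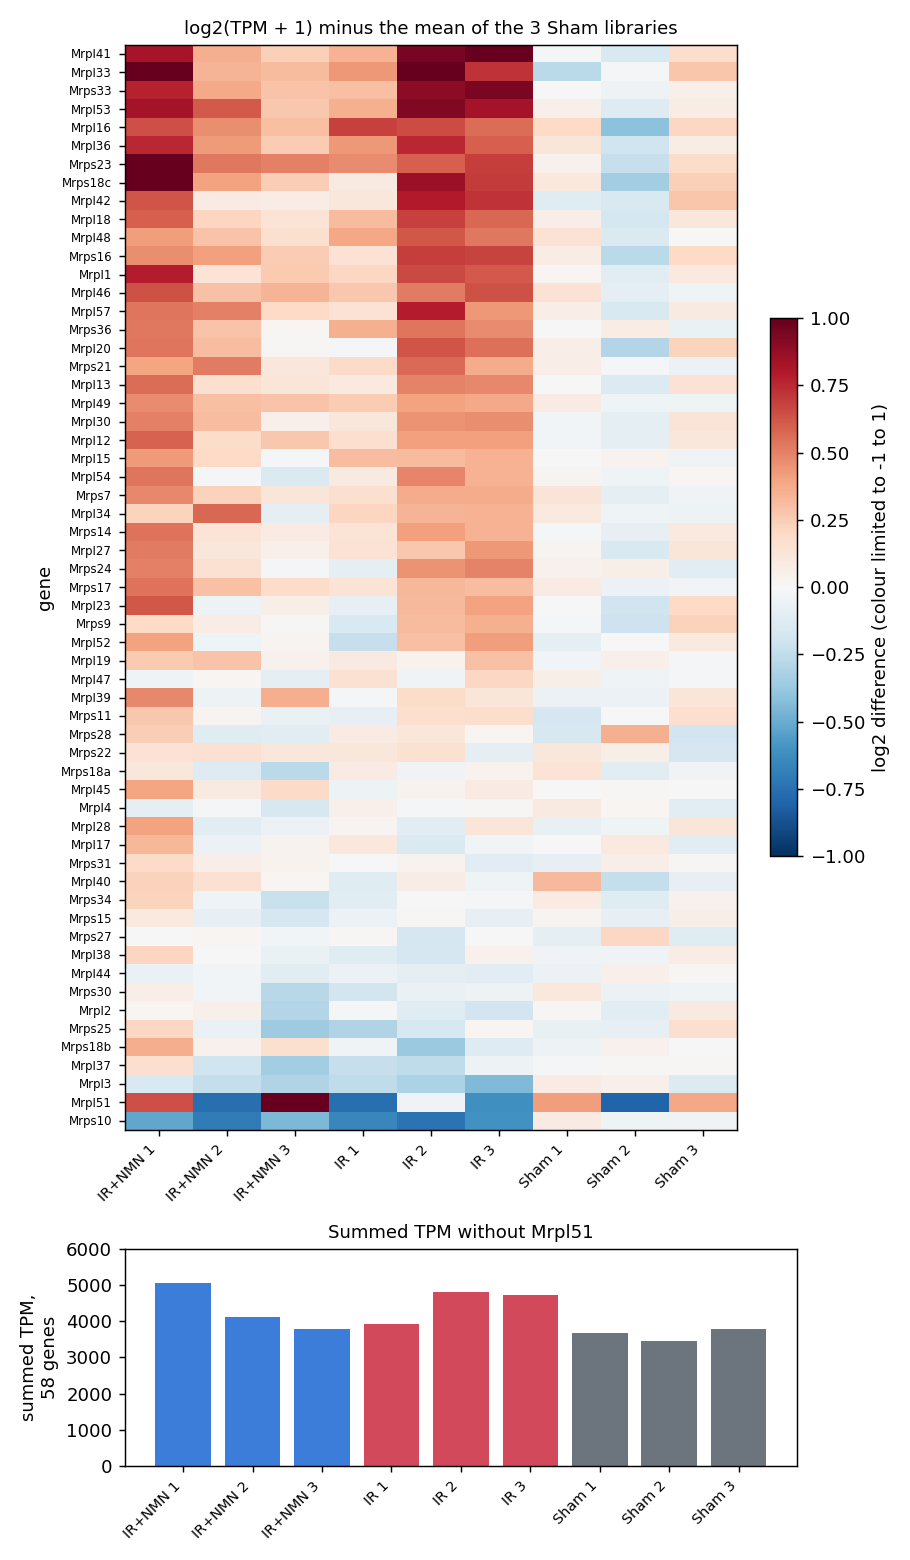
Upper panel, log2(TPM + 1) of each member (rows, ordered by IR against Sham) in each library (columns) minus the mean of the 3 Sham libraries, with colour limited to -1 to 1; lower panel, summed TPM of the 58 members other than Mrpl51. IR+NMN 1, IR 2 and IR 3 are the reddest columns and have the highest sums (5046, 4818 and 4736 TPM), and the Mrps10 row is blue in all 6 occlusion libraries.

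The upward shift was uneven among the 6 occlusion libraries. Summed over the 58 members other than Mrpl51, the level was 5046, 4129 and 3775 TPM in IR+NMN libraries, 3915, 4818 and 4736 TPM in IR libraries and 3678, 3444 and 3778 TPM in Sham libraries. IR+NMN 1, IR 2 and IR 3 stood apart from the other 6, and IR+NMN 3 lay within the Sham range. The means were 4317 ± 656 TPM in IR+NMN, 4490 ± 499 TPM in IR and 3633 ± 171 TPM in Sham (SD, n = 3 each). Members above their Sham mean numbered 53, 41 and 38 in the IR+NMN libraries, 38, 43 and 44 in the IR libraries and 33, 16 and 37 in the Sham libraries. By this count IR 1 and IR+NMN 3 were close to Sham 3. The median member stood 0.42, 0.14 and 0.05 log2 above the Sham mean in IR+NMN libraries and 0.09, 0.31 and 0.35 in IR libraries. In the Sham libraries themselves this value was 0.02, -0.06 and 0.05. IR+NMN 1 held the highest value of 28 members, and Sham 2 the lowest value of 28 members. Including Mrpl51, the sums were 5519, 4309 and 5696 TPM in IR+NMN, 4094, 5114 and 4934 TPM in IR and 4083, 3618 and 4175 TPM in Sham libraries, so that 1 gene put IR+NMN 3 on top.

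The same libraries stood out in other ribosomal and mitochondrial genes. Cytosolic ribosomal protein genes took 11.5%, 7.26% and 7.37% of the TPM in IR+NMN, 5.88%, 8.71% and 8.37% in IR and 5.83%, 5.48% and 6.87% in Sham libraries. Nuclear genes of oxidative phosphorylation (OXPHOS, the respiratory complexes and the ATP synthase) summed to 53080, 38740 and 35150 TPM in IR+NMN, 40240, 52370 and 56350 TPM in IR and 37220, 35550 and 41510 TPM in Sham libraries. In both sets IR+NMN 1, IR 2 and IR 3 were the 3 highest. Oligodendrocyte markers were at 3596, 4267 and 4076 TPM in IR+NMN 1, IR 2 and IR 3, below the 5888 to 12850 TPM of the Sham libraries. Their neuron markers were at 4350, 4732 and 5607 TPM. The part of these differences between libraries in the results on the members was not tested.

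**Figure D4:**
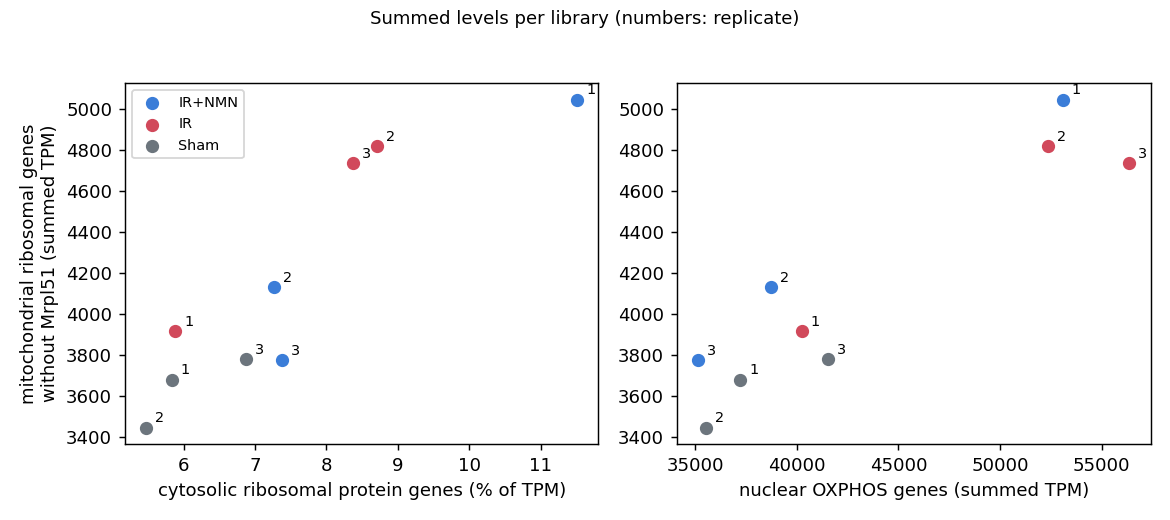
Summed TPM of the 58 members other than Mrpl51 (vertical axes, not starting at 0) in each library against the percent of TPM in cytosolic ribosomal protein genes (left) and the summed TPM of nuclear OXPHOS genes (right); colours are groups and numbers replicates. IR+NMN 1, IR 2 and IR 3 lie apart at the top right of both panels.

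The medians of the 3 sets were close between IR and Sham and further apart between IR+NMN and IR. Between IR and Sham the median log2 change was 0.26 for the 59 members, 0.28 for 82 cytosolic ribosomal protein genes (70 above 0) and 0.28 for 78 OXPHOS genes (66 above 0). Between IR+NMN and IR it was -0.03 for the members, 0.25 for the cytosolic genes (71 above 0) and -0.19 for the OXPHOS genes (5 above 0). Between IR+NMN and Sham it was 0.23, 0.48 and 0.10 for these sets. The difference between the sets was not tested.

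For some members the table splits the level over several rows of the same symbol, which were summed. The 59 members took up 108 rows, with 29 on a single row. In 8 members the highest row held under 80% of the level: Mrpl54 (37.8%), Mrpl16 (42.4%), Mrpl45 (45.2%), Mrpl49 (48.3%), Mrps16 (56.5%), Mrps21 (64.8%), Mrpl23 (68.7%) and Mrps14 (73.9%). The sources used here do not say whether a row is a transcript or a locus. Mrpl54 was the clearest case. Its row 1 had 3.20, 2.08 and 1.63 TPM in IR+NMN, 2.32, 42.4 and 115.5 TPM in IR and 68.5, 58.4 and 58.7 TPM in Sham libraries. Its row 4 had 118, 66.6 and 69.5 TPM in IR+NMN, 92.3, 72.9 and 3.84 TPM in IR and 0.121, 2.38 and 27.0 TPM in Sham libraries. Row 1 was high where row 4 was low, except in IR 2 and, to a lesser degree, Sham 3, which had both. IR 1 resembled the IR+NMN libraries and IR 3 the Sham libraries. The sum of the Mrpl54 rows hid this, at 132.5 ± 34.8 TPM in IR+NMN, 148 ± 20.4 TPM in IR and 119 ± 3.03 TPM in Sham libraries. On row 4 alone, its highest row, the log2 change between IR and Sham would be 2.76 (limma, adjusted p = 0.203), against 0.31 for the sum (adjusted p = 0.281). Row 1 did not share this rise, with IR 1 and IR 2 below all Sham libraries and IR 3 above them. Mrpl49 offered a milder case: its row 3 had 23.0, 24.7 and 25.9 TPM in IR+NMN, 18.3, 28.8 and 28.7 TPM in IR and 14.4, 8.17 and 5.43 TPM in Sham libraries, while row 2 stayed at 31.2 to 38.7, 32.8 to 34.9 and 31.6 to 32.3 TPM in these groups.

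**Figure D5:**
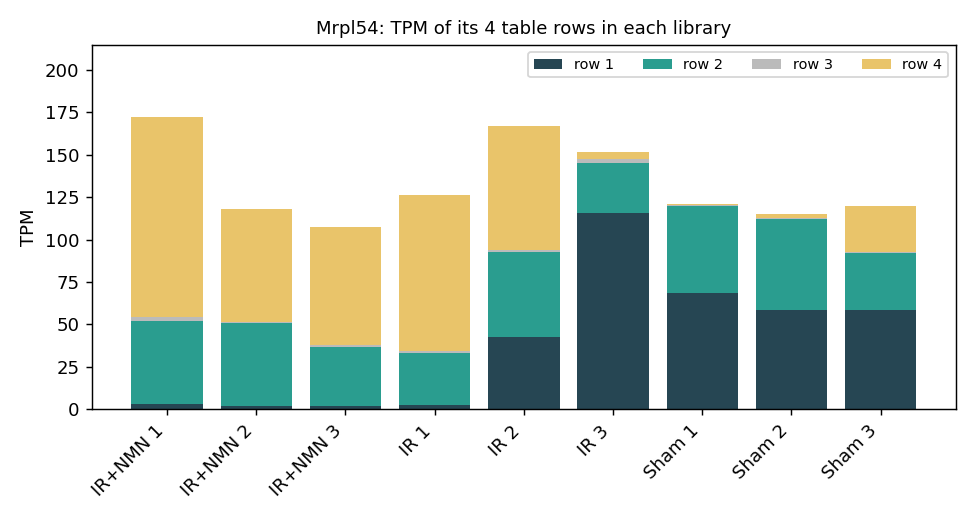
TPM (vertical axis) of the 4 rows of Mrpl54, stacked, in each library (horizontal axis). Row 4 makes up most of the bar in the 3 IR+NMN libraries and IR 1, and row 1 with row 2 in the Sham libraries and IR 3, at total heights between 107 and 172 TPM.

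RefSeq also names at least 1 copy or pseudogene for 23 of the 59 members, Mrps10 among them, so reads of these could have been split. Symbols of 58 members were matched to RefSeq's rat genes (assembly GRCr8), which list Mrps36 under another name. RefSeq has 78 protein-coding Mrpl and Mrps symbols, and those beyond the members, such as Mrpl10, Mrpl58, Mrps2, Mrps6 and Mrps12, were not analysed here.

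Mitoribosomal proteins under other symbols gave like values, with 5 of 6 listed genes tested and 0 called in any comparison. Chchd1, a small-subunit protein, had 207, 129.8 and 135 TPM in IR+NMN, 131, 198.5 and 181 TPM in IR and 103, 86.5 and 112 TPM in Sham libraries. Every occlusion library was above every Sham library, with log2 changes from Sham of 0.62 in IR+NMN (limma, adjusted p = 0.0994) and 0.74 in IR (adjusted p = 0.0712). The other genes had smaller log2 changes between IR and Sham, at 0.20 for Gadd45gip1 in the large subunit, 0.17 for Aurkaip1, 0.11 for Ptcd3 and 0.09 for Dap3 in the small subunit.

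Genes that serve the mitoribosome did not share its upward median. Assembly factors (17 of 27 listed genes tested) had medians of -0.02 between IR and Sham, 0.00 between IR+NMN and IR and 0.08 between IR+NMN and Sham. In that list Ngrn, which acts on the RNA of the large subunit, fell in IR+NMN. It averaged 46.1 ± 5.41 TPM in IR+NMN, 56.6 ± 4.81 TPM in IR and 63.8 ± 4.14 TPM in Sham libraries, a log2 change of -0.46 between IR+NMN and Sham (standard error 0.12, limma adjusted p = 0.0461). This call held in 5 of 21 alternatives, 1 of them (without IR 1) among the 9 that left out a library, with adjusted p up to 0.167 (without Sham 2). Translation factors (14 of 18 tested) had medians of -0.14, 0.04 and -0.07 in the same order and 0 called genes. Mitochondrial tRNA synthetases (13 of 20), which charge the tRNAs, had medians of -0.21, 0.03 and -0.12 and 0 called genes. All 3 lists therefore sat nearer to the median of all genes than the members did between IR and Sham.

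Genes of mitochondrial transcription and RNA processing (17 of 23 tested) had medians of 0.07 between IR and Sham, 0.03 between IR+NMN and IR and 0.14 between IR+NMN and Sham. Tbrg4, an RNA-binding protein that stabilizes some mitochondrial messenger RNAs, fell in IR. It averaged 15.95 ± 1.34 TPM in IR+NMN, 13.4 ± 1.78 TPM in IR and 19.8 ± 1.18 TPM in Sham libraries, a log2 change of -0.53 between IR and Sham (standard error 0.13, limma adjusted p = 0.0464). The call held in 10 of 21 alternatives, and leaving out IR+NMN 3, IR 2, IR 3 or any Sham library ended it, with adjusted p up to 0.175 (without IR 2).

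Regulators of mitochondrial biogenesis (9 of 10 tested) had medians of -0.34, 0.04 and -0.20 in these comparisons. Ppargc1a, the transcriptional coactivator PGC-1α, had 6.55, 9.48 and 6.5 TPM in IR+NMN, 11.8, 6.82 and 7.91 TPM in IR and 13.7, 18.5 and 14.7 TPM in Sham libraries. It fell in IR+NMN with a log2 change of -0.97 from Sham (standard error 0.22, limma adjusted p = 0.0276). Between IR and Sham the log2 change was -0.78 (adjusted p = 0.0661). Leaving out IR+NMN 1, IR+NMN 3, Sham 2 or Sham 3 ended the IR+NMN call (adjusted p up to 0.115). Myc, a transcription factor that promotes ribosome and mitochondrial biogenesis, had 7.88, 5.98 and 10.8 TPM in IR+NMN, 4.38, 2.38 and 3.18 TPM in IR and 3.62, 3.10 and 3.83 TPM in Sham libraries. All IR+NMN libraries were above all others. Myc rose in IR+NMN with a log2 change of 1.09 from IR (standard error 0.23, limma adjusted p = 0.0477) and of 0.998 from Sham (adjusted p = 0.0293). The call against IR held in 6 of 21 alternatives and, of the single libraries, only leaving out IR 1 or IR+NMN 2 kept it (adjusted p up to 0.211, without IR 2). The call against Sham held in 14, and leaving out IR+NMN 1, IR+NMN 3, IR 3 or any Sham library ended it (adjusted p up to 0.115, without Sham 2).

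The gene starts of the members were compared as a description of what they share. A window of 300 bases, 250 before and 50 after the start, was found in the RefSeq promoter table for 49 members and not for the other 10. Both strands were searched for the exact letters GCGCATGC (NRF1-type), CCGGAAG (ETS-type, the family of the GABP factor) and AAGATGGC (YY1-type). NRF1, GABP and YY1 are known regulators of nuclear genes for mitochondrial proteins. The ETS-type letters were in 19 members (38.8%), against 8.75% of all 33469 windows and 17.6% of the 8226 windows of tested genes. For the YY1-type letters it was 12 members (24.5%), against 3.17% and 5.36%, and for the NRF1-type letters 3 members (6.12%), against 2.47% and 4.91%. At least 1 of these was in 27 members (55.1%), against 13.3% and 25.1%. The windows of the members had a median GC content of 55.7%, against 51.7% for all windows and 61.0% for those of tested genes. At least 1 motif was in 10 of the 20 members with a window whose IR libraries all lay above Sham, and in 17 of the other 29. The difference was not tested. Both Mrps10, which fell, and Mrpl48, which rose, held ETS-type and YY1-type letters. A match of letters is a description of the window and not evidence of a bound factor.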

How the data were processed

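The authors deposited 1 table of TPM values for the 9 libraries, and no counts, so depth is unknown and no counting interval is given. Per the labels' protocols, total RNA was extracted with a kit, accepted at an RNA integrity number of 5.8 or more, and amplified by Smart-Seq2. STAR, Cufflinks and hg38, a human build, stand in the submitters' processing notes for these rat samples. Their versions, the annotation and the treatment of multiply mapped reads are not stated in these sources. Of 131003 rows, 27683 carried a symbol, 40459 a dash and 62861 a blank. Rows of the same symbol were summed, and rows without one were left out.

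Symbols that reached 1 TPM in 3 or more of the 9 libraries were tested as log2(TPM + 1), which understates changes of low genes. Every adjusted p comes from limma 3.58.1 (R 4.3.3), with 1 mean per group over all 9 libraries, 6 residual degrees of freedom, an intensity trend and robust moderation, two-sided, adjusted over 10180 genes by the Benjamini-Hochberg method within each comparison, threshold 0.05. The script was tested on simulated data. Sums and medians over members were given without a test. Figures used matplotlib 3.10.9.

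The members, gene lists and tests were chosen with earlier results of these data known. The naming rule took members past the threshold or with the 5 smallest p per comparison, the 5 highest and 5 lowest means, members split over rows, members with a known special role, those with the largest and smallest spread between groups, and called genes of the other mitochondrial lists. Mrpl3, Mrpl18, Mrpl37 and Mrps31, the members near the threshold beyond the 5 smallest p, and the neighbours of Mrpl51 were chosen after their values were seen. Alternatives were pseudocounts of 0.1 and 0.5, other filters, the highest row per symbol, 3 scalings, no intensity trend, only the 2 groups compared, a replicate block, an unmoderated model and leaving out each library; sums without Mrpl51, and marker sums without Gfap, C1qa and C1qb, were added after seeing the data.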

Additional observations from a re-analysis of the deposited data

How the results depend on the processing

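Among 204 results of single genes, 0 reversed and 24 changed their call in at least 1 of 21 alternatives. The 2 members called between IR and Sham became 1 with the highest row per symbol, quantile scaling, no intensity trend, only the 2 groups compared or the unmoderated model, 0 with the replicate block (adjusted p = 0.0542 for Mrps10), and 0 to 10 when a library was left out. The 2 called between IR+NMN and Sham became 1 with quantile or median-of-ratios scaling, only the 2 groups compared or the replicate block, and 0 to 4 when a library was left out. With the unmoderated model the count stayed at 2, but Mrps23 was no longer among them. Between IR+NMN and IR the count of members was 0 in every alternative, of which 4, each without 1 library, called 0 of all genes. The cause of these changes was not tested.

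Over all genes, the 651 calls between IR and Sham became 100 with the replicate block and 74 to 1138 when a library was left out. The 240 between IR+NMN and IR became 7 with quantile scaling, 73 with median-of-ratios scaling, 2 with only the 2 groups compared, 33 with the replicate block, 3 with the unmoderated model and 0 to 496 when a library was left out. The 1053 between IR+NMN and Sham became 620 with only the 2 groups compared, 499 with the replicate block, 636 with the unmoderated model and 276 to 2168 when a library was left out.

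The median log2 change of the members between IR and Sham was 0.388 with quantile and 0.476 with median-of-ratios scaling, against 0.258 as reported, and 0.174 to 0.347 when a library was left out. Between IR+NMN and Sham it was 0.372 with median-of-ratios scaling, against 0.227, and 0.11 to 0.285 when a library was left out. Between IR+NMN and IR it was -0.104 to 0.0505 when a library was left out. The mean summed TPM over all members in IR+NMN (5175) was 4317 without Mrpl51 and 4914 to 5608 when a library was left out, and in IR (4714) it was 4514 to 5024. In Sham (3958) it was 3533 with the highest row per symbol, 3658 with median-of-ratios scaling, 4260 with scaling without cytosolic ribosomal and hemoglobin genes, 3633 without Mrpl51 and 3850 to 4129 when a library was left out.

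The replicate numbers showed no clear pairing of the libraries: correlations of same-numbered libraries' deviations from their group means ran from -0.568 to 0.492, with 3 of 9 over 0.1. With 3 libraries a group this check cannot show that pairing was absent. With 3 libraries a group, unknown depth and amplification by Smart-Seq2, single members near the threshold are uncertain.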
